A study of Mus musculus with 9 samples.

Results

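Interferon response genes are the genes that cells switch on when interferons, the secreted alarm proteins of viral infection, bind their receptors. A list of 41 such mouse genes was followed here across 9 expression arrays of blood progenitor cells that carried 1 of 3 retroviral vectors. The members were taken by gene symbol, using the transcript cluster with the highest mean over the 9 arrays where a symbol had several, and 40 of the 41 were measured among 21072 transcript clusters (18797 distinct symbols). A transcript cluster is a set of probes summed to 1 value per gene or locus, and Ifi44 had no cluster with its symbol alone.

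Bone marrow came from C57BL/6 females of 8 weeks that had received 5-fluorouracil, a drug that kills dividing cells, at 150 mg/kg 6 days before harvest. Cells without mature lineage markers and positive for Sca and Kit were enriched magnetically, infected with retrovirus on consecutive days in all 3 groups, and sorted for green fluorescent protein after 72 h of culture. The control group (MIE) had the empty vector that makes only the fluorescent protein, the second group (GATA2 WT) a vector with wild-type GATA2 cDNA, and the last group (GATA2 R396Q) a vector with GATA2 cDNA bearing the R396Q change, in the C-terminal zinc finger that binds DNA. Each group had 3 arrays, numbered 1 to 3 in their titles. GATA2 is a zinc finger transcription factor that blood stem cells need for their upkeep. The species of the cDNA is not stated, the vectors add GATA2 on top of the cells' own Gata2, and nothing says that samples of 1 group are separate animals or cultures, so p-values measure only the spread between these samples. What arrays of 1 number share is not stated either.

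Type I interferons bind the receptor pair Ifnar1 and Ifnar2, and the kinases Jak1 and Tyk2 then activate Stat2, which joins Irf9 in a complex that binds interferon-stimulated response elements in promoters. The genes that follow encode sensors of foreign nucleic acid, enzymes and proteins that block viral growth, the ubiquitin-like modifier Isg15 and its enzymes, and the machinery of antigen processing. In blood stem cells interferons are known to end quiescence and, when present for long, to exhaust the stem cell pool.

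Short stretches of the promoters are shown because the members moved together in the arrays and some hold the letters of such an element. RefSeq promoters on the GRCm38.p6 build, 250 bases before to 50 bases after each start, were found for 31 of the 40 measured members. Dhx58, Mx1, Mx2, Oas2, Parp14, Parp9, Rtp4, Usp18 and Zbp1 had none and were not searched. Among them, Oas2, Usp18, Rtp4 and Zbp1 belong to the 10 members with the largest difference of arrays numbered 1, given below. The letters GAAANNGAAA, the core repeat of an interferon-stimulated response element searched on both strands (TTTCNNTTTC on the other strand, overlapping matches allowed), occurred in 15 of the 31 members (48.4%) and in 1079 of 27025 genes with a promoter in the table (3.99%). The letters TTCNNNGAA, the palindrome of interferon-gamma activated sites, occurred in 8 of the 31 (25.8%) and in 9.55% of all genes. The stretches below lie before the start of 6 members whose signals are given further on, with matches to GAAANNGAAA or its reverse complement in capitals.
Ifit1: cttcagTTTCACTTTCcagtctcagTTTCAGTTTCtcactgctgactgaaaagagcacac
Isg15: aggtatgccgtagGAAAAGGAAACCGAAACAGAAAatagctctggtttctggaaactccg
Oas1a: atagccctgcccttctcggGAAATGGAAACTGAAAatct
Oas3: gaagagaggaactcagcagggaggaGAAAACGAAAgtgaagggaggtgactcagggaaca
Rsad2: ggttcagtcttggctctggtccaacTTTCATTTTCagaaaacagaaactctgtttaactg
Trim30a: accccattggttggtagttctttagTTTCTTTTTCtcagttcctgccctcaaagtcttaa
They are chr19:34640779-34640838 on the plus strand for Ifit1, and on the minus strand chr4:156200850-156200909 for Isg15, chr5:120907526-120907564 for Oas1a, chr5:120777700-120777759 for Oas3, chr12:26456538-26456597 for Rsad2 and chr7:104465195-104465254 for Trim30a. The nearest match begins 14 bases before the start in Oas1a and 120 bases before it in Rsad2, with 66 in Isg15, 75 in Oas3, 85 in Ifit1 and 36 in Trim30a. Cmpk2, Irf7, Irf9, Ifit2 and Lgals3bp are among the 16 members whose window lacks these letters, which says nothing of elements elsewhere.

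The signals are deposited log2 values, and the median over all clusters ran from 6.06 to 6.19 across the arrays, with lower quartiles of 4.54 to 4.60. Gata2 read 9.65 to 9.87 on the MIE arrays, 10.94 to 11.50 on the GATA2 WT arrays and 10.53 to 10.72 on the GATA2 R396Q arrays. Both GATA2 groups were thus above the control, and the GATA2 R396Q arrays were below the GATA2 WT arrays. The label HSC describes the cells at harvest. Of 8 measured stem and progenitor markers, limma with the replicate block called Kit, Cd34, Flt3 and Hlf lower with GATA2 WT than with MIE and Slamf1 and Meis1 higher. Of all clusters, 9.41% were called lower and 8.00% higher. Kit read 12.22 to 12.38 with MIE, 9.42 to 9.50 with GATA2 WT and 10.32 to 10.58 with GATA2 R396Q, and Cd34 read 12.94 to 13.46, 8.41 to 8.69 and 12.77 to 12.83. Slamf1 read 6.76 to 7.31 with MIE, 10.15 to 11.21 with GATA2 WT and 9.54 to 10.93 with GATA2 R396Q, and Procr 4.98 to 5.35 over all arrays, close to the lower quartile. Some genes of maturing cells were far above the array medians on all arrays, such as Mpo of neutrophil precursors at 12.83 to 17.61 and Cpa3 of mast cells at 13.99 to 17.14, while others were below them on some arrays or all, such as Ltf of later neutrophils at 5.62 to 13.03 and Slc4a1 of red cells at 4.72 to 5.64. The samples are bulk RNA, so a change in the number of cells that express a gene and a change in RNA per cell cannot be told apart.

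The interferon response genes had a larger median difference between replicate numbers than between any pair of vectors. In every group the array numbered 1 had higher signals of the interferon response genes than the arrays numbered 2 and 3. The median member read 10.13, 7.11 and 6.95 on MIE arrays 1, 2 and 3, 10.89, 7.94 and 7.04 on GATA2 WT arrays 1, 2 and 3, and 9.62, 6.83 and 6.54 on GATA2 R396Q arrays 1, 2 and 3. The median rise of number 1 over the mean of numbers 2 and 3 was 2.17 on the log2 scale for the members and 0.00 for all clusters, and it was 2.24 within MIE, 2.44 within GATA2 WT and 2.10 within GATA2 R396Q. This difference was known when the list was made, so its size is a description of these arrays and no independent support. The same holds for the counts, limma calls and p-values of the members for number 1 given below. Number 1 is also a single number with 1 array per vector. For members, other lists and genes outside them, its SEs and p-values measure how evenly a difference recurred across the 3 vectors. They do not measure how much replicate numbers vary.

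**Figure D1:**
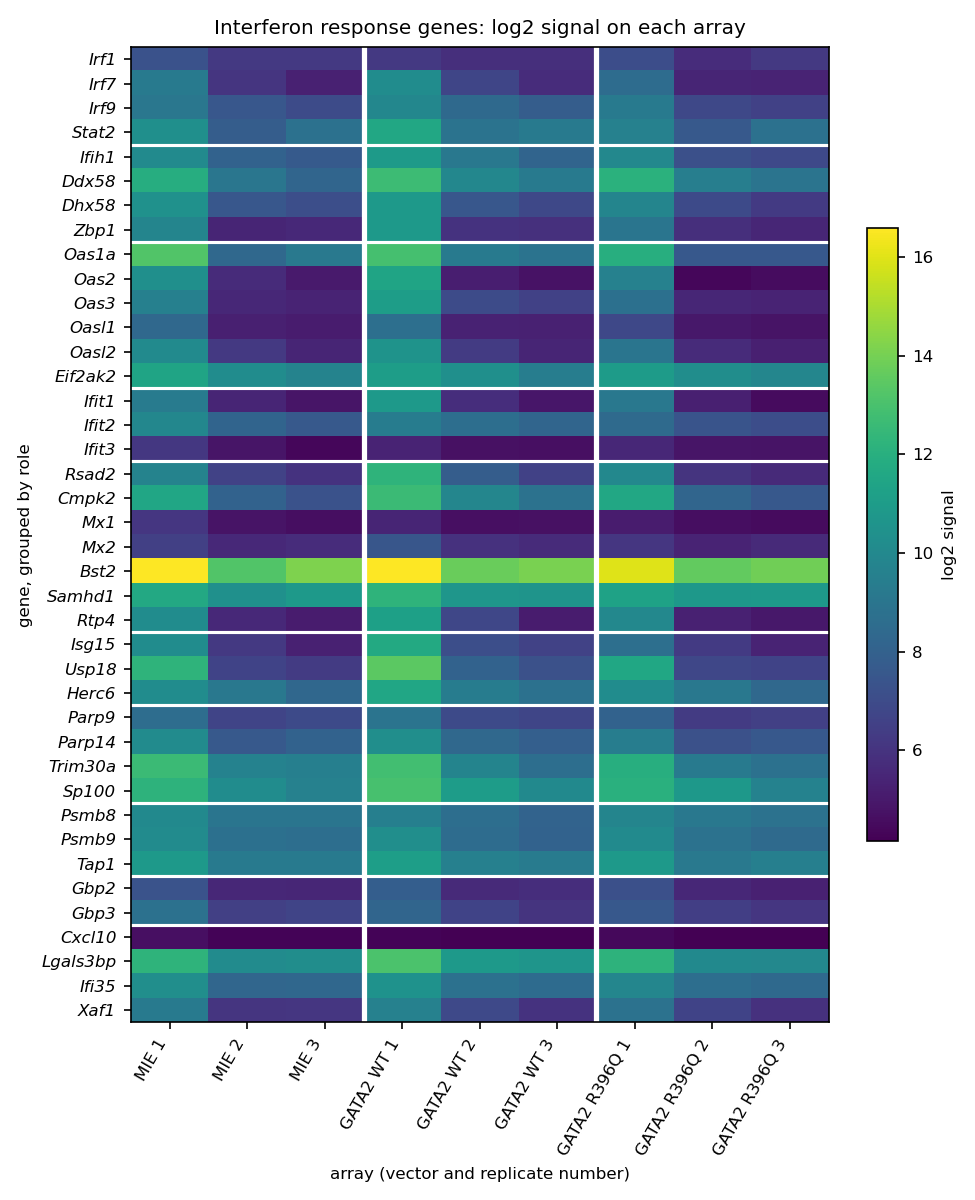
Log2 signal of 40 interferon response genes (vertical axis, grouped by role) on the 9 arrays (horizontal axis, by vector and replicate number), with the colour scale in log2 units. The column numbered 1 is the brightest of its group for all 40 genes, and Usp18 runs from 12.23 on MIE array 1 to 6.34 on MIE array 3.

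In limma with group and replicate number as terms and Benjamini-Hochberg adjustment over all clusters, 34 of the 40 members were called higher in number 1 at an adjusted p under 0.05, against 1.89% of all clusters, and 0 were called lower, against 0.650%. At an unadjusted p under 0.05 all 40 were higher. The share of all clusters at this unadjusted threshold was not counted for number 1, here or in the lists below. The array numbered 1 was above both others of its group in all 3 groups for 40 of 40 members, against 9.01% of all clusters. All 3 arrays numbered 1 were above all 6 others for 37 members, against 2.85%, and the exceptions were Irf1, Ifit2 and Cxcl10. At least a 2-fold difference was seen for 35 members, against 1.32% of all clusters. Members also made up 15 of the 30 clusters that were at least 8-fold higher, and 11 of the 20 clusters with the largest rise. The count of 34 rests on few arrays, and it was 5 without MIE array 1, 15 without GATA2 WT array 1, 22 without GATA2 WT array 2 and 21 without GATA2 R396Q array 3, while the median rise stayed at 2.11 to 2.28 over the 9 fits that each left out 1 array.

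Among the transcription factors, 3 of 4 were called higher in number 1. In what follows, signals are given for arrays 1, 2 and 3 in that order. Irf7, which drives the late wave of interferon genes, read 9.28, 6.10 and 5.28 with MIE, 10.19, 6.75 and 5.71 with GATA2 WT and 8.55, 5.44 and 5.37 with GATA2 R396Q, so that all 3 arrays numbered 1 stood above the other 6. Stat2, a partner in the DNA-binding complex, read 10.35, 7.85 and 8.82 with MIE, 11.59, 8.89 and 9.27 with GATA2 WT and 9.62, 7.65 and 8.81 with GATA2 R396Q. Irf1, a factor known best from the interferon-gamma response, read 7.29, 6.21 and 6.21 with MIE, 6.21, 5.83 and 5.86 with GATA2 WT and 7.09, 5.74 and 6.21 with GATA2 R396Q. The 3 arrays numbered 1 did not all exceed the others in Irf1, whose rise of 0.85 (SE 0.17) missed the limma threshold (adjusted p = 0.0841). GATA2 WT array 1 held exactly the same deposited value, 6.2108, as MIE arrays 2 and 3 and GATA2 R396Q array 3.

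All 4 nucleic acid sensors were called higher in number 1. Ifih1, also known as MDA5, detects long double-stranded RNA and was 5.53-fold higher, Ddx58, also known as RIG-I, detects short RNA with a 5′ triphosphate and was 8.50-fold higher, and Dhx58, which tunes both, was 10.2-fold higher. Zbp1, a sensor of Z-form nucleic acid that can trigger cell death, read 9.81, 5.46 and 5.60 with MIE, 10.90, 5.97 and 5.90 with GATA2 WT and 8.98, 5.83 and 5.51 with GATA2 R396Q. Its arrays numbered 2 and 3 lay close together in all 3 groups, and its rise was 18.2-fold.

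The OAS enzymes, which make the small messenger that activates RNase L, held several of the largest differences, and all 6 genes of the OAS and PKR group were called. Oas2 read 10.36, 5.67 and 5.07 with MIE, 11.42, 5.22 and 4.75 with GATA2 WT and 9.62, 4.39 and 4.56 with GATA2 R396Q. Its rise in number 1 was 45.9-fold (5.52 on the log2 scale, SE 0.32; limma adjusted p = 0.00726), the largest of any member. On GATA2 R396Q array 2 its signal was under the lower quartile of the array, so its fold is measured against a dim probe set. Oasl2 read 10.12, 6.22 and 5.42 with MIE, 10.54, 6.32 and 5.43 with GATA2 WT and 8.97, 5.68 and 5.23 with GATA2 R396Q, a 17.9-fold rise. Eif2ak2, the RNA-activated kinase PKR that stops translation, changed least in this group, by 2.30-fold, from 11.42, 10.22 and 9.69 with MIE, 11.10, 10.33 and 9.42 with GATA2 WT and 10.97, 10.26 and 9.84 with GATA2 R396Q. Oas1a has near-identical copies in the mouse genome, among them Oas1g, and Ifit3 has one in Ifit3b, so probes of these genes may read more than 1 copy.

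Among the IFIT proteins, which bind viral RNA, Ifit1 and Ifit2 were called and Ifit3 was not (0.98, SE 0.21; limma adjusted p = 0.0871). Ifit1 read 9.32, 5.46 and 4.84 with MIE, 10.88, 5.76 and 4.93 with GATA2 WT and 9.16, 5.24 and 4.52 with GATA2 R396Q. That is a 25.3-fold rise, with no overlap between the arrays numbered 1 and the others. On GATA2 R396Q array 3 Ifit1 was under the array's lower quartile, so this fold too is measured in part against a dim signal. Ifit2 was 2.60-fold higher, from 9.90, 8.18 and 7.65 with MIE, 9.37, 8.67 and 8.20 with GATA2 WT and 8.46, 7.39 and 7.11 with GATA2 R396Q, and GATA2 R396Q array 1 lay below GATA2 WT array 2.

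Among 7 other antiviral effectors, 4 were called. Rsad2, or viperin, makes a chain-terminating nucleotide against viral polymerases, and it read 9.72, 6.60 and 6.00 with MIE, 12.24, 7.84 and 6.55 with GATA2 WT and 9.94, 6.04 and 5.64 with GATA2 R396Q. Rtp4, a chaperone of membrane receptors, read 10.18, 5.59 and 5.08 with MIE, 11.20, 6.82 and 5.12 with GATA2 WT and 9.98, 5.29 and 4.94 with GATA2 R396Q, a 31.6-fold rise. Bst2, or tetherin, holds budding virus at the cell surface and was 6.02-fold higher, from 16.55, 13.21 and 14.19 with MIE, 16.59, 13.75 and 14.07 with GATA2 WT and 15.98, 13.63 and 13.87 with GATA2 R396Q. Mx1, Mx2 and Samhd1, a dNTP-degrading enzyme, had rises of 0.90, 1.03 and 1.05 and missed the threshold (limma adjusted p = 0.0696, 0.0899 and 0.0918). The Mx genes of many inbred laboratory strains, C57BL/6 among them, carry mutations that abolish the protein.

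All 3 genes of the ISG15 system were called. Isg15, the ubiquitin-like modifier, read 10.22, 6.20 and 5.31 with MIE, 11.72, 7.16 and 6.59 with GATA2 WT and 8.71, 6.27 and 5.39 with GATA2 R396Q, a 16.7-fold rise. Herc6, the main ligase that attaches Isg15 in the mouse, read 10.18, 9.15 and 8.31 with MIE, 11.52, 9.39 and 8.78 with GATA2 WT and 10.20, 9.14 and 8.36 with GATA2 R396Q. Usp18, which removes Isg15 and dampens the type I receptor, was 44.2-fold higher in number 1 (5.47, SE 0.23; limma adjusted p = 0.00367), by 53.1-fold within MIE, 57.1-fold within GATA2 WT and 28.5-fold within GATA2 R396Q. Of the 10 members with the largest rise, Usp18 alone passed the threshold in each of the 9 fits that left out 1 array. Oas2, Rtp4, Ifit1, Oas1a, Oasl2 and Oas3 lost the call only without MIE array 1, Zbp1 without MIE array 1 or GATA2 WT array 1, and Rsad2 and Isg15 with 5 and 7 of the 9 arrays left out in turn.

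**Figure D2:**
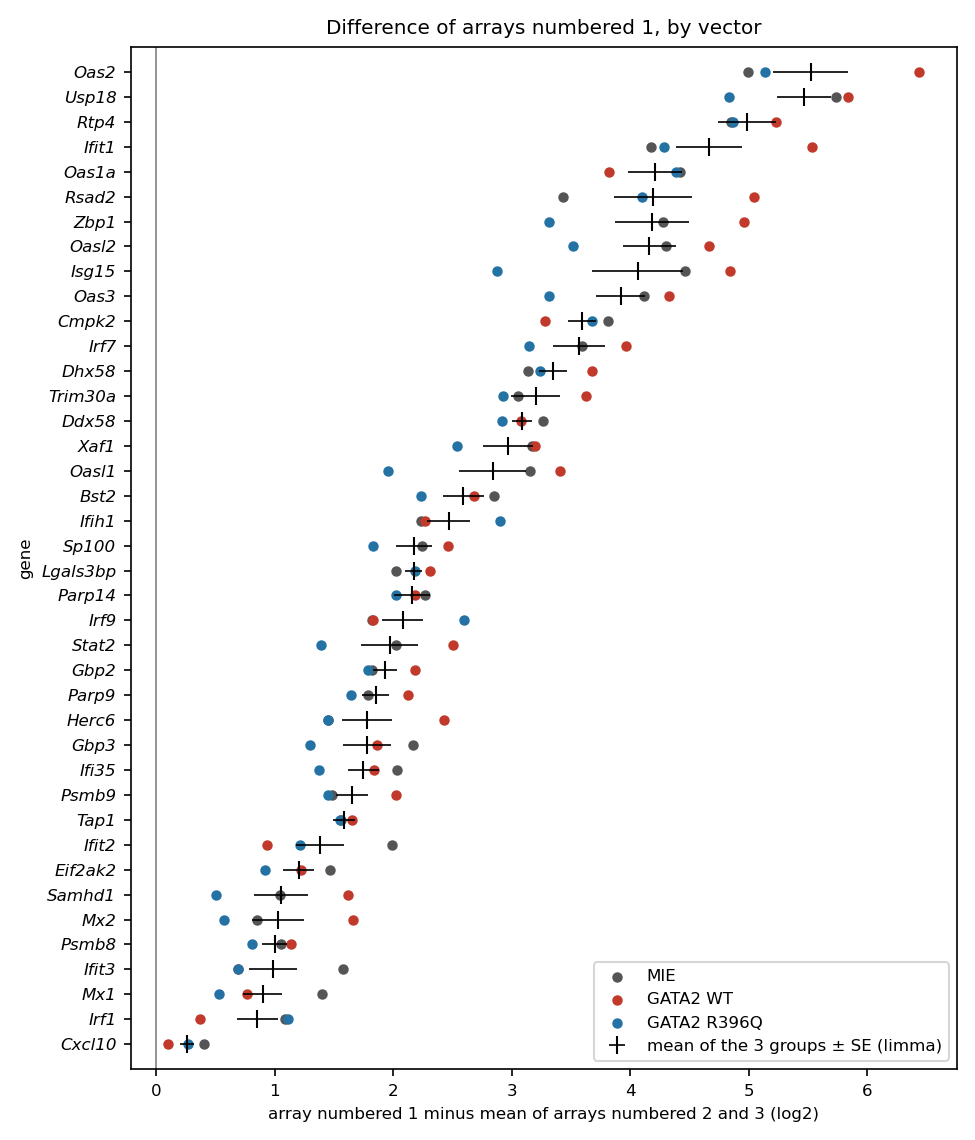
Difference between the array numbered 1 and the mean of the arrays numbered 2 and 3 (horizontal axis, log2) for each of 40 genes (vertical axis), as a point per vector, with a cross and bar for the mean of the 3 groups ± SE from limma. All points lie to the right of 0, and Oas2 leads at 5.52.

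In the remaining role groups every member but Cxcl10 was called higher in number 1. The 4 PARP, TRIM and nuclear body genes rose 3.61-fold (Parp9), 4.46-fold (Parp14), 9.19-fold (Trim30a) and 4.51-fold (Sp100). Trim30a, a brake on NF-kappa B signaling, read 12.64, 9.65 and 9.54 with MIE, 12.85, 9.78 and 8.66 with GATA2 WT and 11.94, 9.26 and 8.77 with GATA2 R396Q. Sp100, a nuclear body protein, read 12.17, 10.22 and 9.64 with MIE, 12.98, 11.01 and 10.04 with GATA2 WT and 12.06, 10.80 and 9.67 with GATA2 R396Q. The antigen processing genes Psmb8 and Psmb9, immunoproteasome subunits, and Tap1, a subunit of the peptide transporter, rose 2.00-fold, 3.14-fold and 3.00-fold. Tap1 read 10.81, 9.23 and 9.28 with MIE, 11.10, 9.57 and 9.33 with GATA2 WT and 10.89, 9.18 and 9.51 with GATA2 R396Q. The guanylate-binding proteins Gbp2 and Gbp3, GTPases that attack the vacuoles of intracellular pathogens, rose 3.81-fold and 3.42-fold, with Gbp3 at 8.78, 6.53 and 6.70 with MIE, 8.21, 6.65 and 6.03 with GATA2 WT and 7.58, 6.45 and 6.13 with GATA2 R396Q. Lgals3bp rose 4.50-fold, Ifi35 3.36-fold and Xaf1, a protein that promotes apoptosis, 7.83-fold. Cxcl10, a chemokine that draws T cells, was below the lower quartile on 8 of 9 arrays, at 4.16 to 4.66, and its difference of 0.26 was not called (limma adjusted p = 0.0973).

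The arrays numbered 2 and 3 differed far less. Members were higher on array 2 than on array 3 in 25 of 40 cases with MIE, 34 with GATA2 WT and 30 with GATA2 R396Q, with median differences of 0.15, 0.48 and 0.26.

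Further interferon targets were also higher in number 1, while few genes of the separate upstream lists were called. Those lists leave out upstream genes that are members. Of these members, Irf7, Irf9, Stat2 and all 4 nucleic acid sensors were called higher in number 1. Of all clusters, limma called 1.89% higher and 0.650% lower in number 1. Of 59 measured further targets (75 listed), 37 were called higher and 0 lower, with a median rise of 1.03. They include Oas1g (4.41, SE 0.20), Isg20, an exonuclease (1.08, SE 0.04), Irgm2, an immunity-related GTPase (2.71, SE 0.11), and Epsti1 (2.04, SE 0.08). Of 17 measured interferon ligand genes (20 listed), limma called 0 (3 lower at an unadjusted p under 0.05), and their median difference was -0.02. Limma also called 0 of 6 receptor genes (2 higher unadjusted) and 0 of 8 JAK kinases and STATs (2 higher unadjusted), with medians of 0.27 and 0.08. After quantile normalization the latter median was 0.00. Ifngr1 was nearest to the threshold among the receptors (0.76, SE 0.12; limma adjusted p = 0.0521). Irf5 was the 1 called gene of 5 other IRF factors (0.68, SE 0.10). In the sensor pathway list Adar, an RNA-editing enzyme with an interferon-inducible form, was higher (1.16, SE 0.11) and Myd88, the adaptor of Toll-like receptors, lower (-0.39, SE 0.05) among 14 measured genes, and limma called 0 of 9 negative regulators (4 higher and 1 lower unadjusted).

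**Figure D3:**
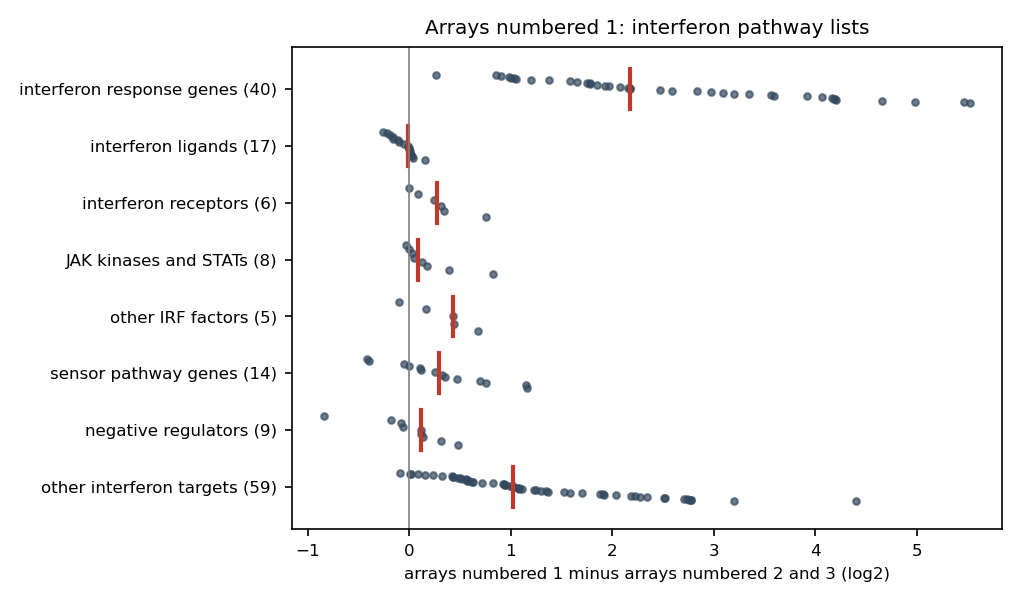
Difference of arrays numbered 1 from arrays numbered 2 and 3 (horizontal axis, log2, mean of the 3 groups) for each measured gene of 8 lists (vertical axis, number of genes in parentheses), with a red bar at each list's median. The response genes and the other targets have medians of 2.17 and 1.03, and the ligands -0.02.

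Markers of other cell types also differed by replicate number, most of all those of neutrophils. The shares of all clusters called were again 1.89% higher and 0.650% lower in number 1. All 10 neutrophil markers were higher in number 1 by the mean over groups, with a median of 2.39. Limma called 4 (Ly6g, S100a9, Ngp and S100a8), and 7 were higher at an unadjusted p under 0.05. The summed level of the 10 on the log2 scale was 19.02, 18.67 and 17.90 with MIE, 15.71, 15.35 and 12.99 with GATA2 WT and 18.53, 17.98 and 16.51 with GATA2 R396Q. Several of these genes were near to number 1 on the arrays numbered 2 and low on those numbered 3: S100a8 read 16.57, 16.13 and 12.10 with MIE, while Usp18 read 12.23, 6.65 and 6.34. All 6 measured erythroid markers were higher in number 1 by the mean over groups, with a median of 0.71, and limma called 0 (4 higher at an unadjusted p under 0.05). Of 4 B cell markers Cd79b and Pax5 were called (4 higher unadjusted). The sums of the 4 were 8.80 to 9.49 in number 1 and 7.68 to 8.29 elsewhere. Of 9 markers of plasmacytoid dendritic cells, the professional interferon producers, 1 was called (Spib, 0.63) and 2 were higher unadjusted. Ly6d had a larger rise of 1.34 (SE 0.33) but was not called (limma adjusted p = 0.119), and Siglech read 5.67 to 5.91 on all arrays. The sums of the 9 were 9.97 to 10.33 in number 1 and 9.61 to 10.13 elsewhere. Of 6 NK cell markers Nkg7 was called (2 higher unadjusted). Limma called 0 of 9 monocyte and macrophage markers (4 higher and 1 lower unadjusted). It also called 0 of 5 T cell markers (1 higher unadjusted), with Cd3e at 4.02 to 4.32. The part of other cell types in the difference between replicate numbers was not tested.

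**Figure D4:**
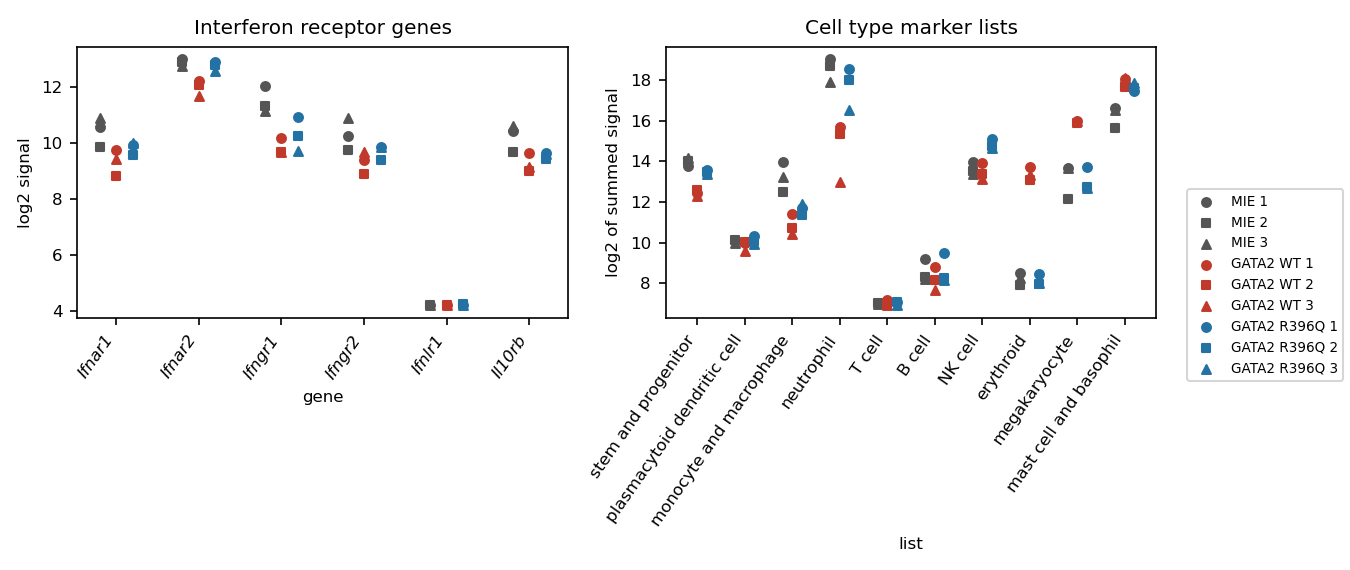
Left, log2 signal of 6 interferon receptor genes. Right, log2 of the summed signal of 10 cell type marker lists, each with 1 point per array, coloured by vector and shaped by replicate number. Ifnar2 with GATA2 WT lies below both other groups, and the neutrophil sums run from 12.99 to 19.02.

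The comparison of GATA2 WT with MIE asked what added wild-type GATA2 did to these genes. The spread between numbers within a group was so wide that limma without a block called 0 of 40 members, against 8.99% of all clusters. At an unadjusted p under 0.05 the count was also 0, against 22.1% of all clusters. The SD over 3 arrays was 3.31 for Usp18 and 2.38 for Oas3 in the MIE group. Within a number, GATA2 WT was mostly the higher array. It exceeded MIE in all 3 numbers for 21 members, against 20.0% of all clusters, and was lower in all 3 for Cxcl10, Irf1 and Psmb8, against 23.7%. The median difference was 0.27, with 0.48, 0.42 and 0.07 in numbers 1, 2 and 3. The mean difference was positive for 31 of 40 members, against 45.5% of all clusters.

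With the replicate number as a block, limma called 6 members higher with GATA2 WT, against 8.00% of all clusters, and 1 lower, against 9.41%. Cmpk2, a mitochondrial nucleotide kinase encoded beside Rsad2, read 11.50, 8.07 and 7.30 with MIE and 12.64, 9.87 and 8.85 with GATA2 WT, and it was 2.81-fold higher (1.49, SE 0.14; limma adjusted p = 0.00366). The gap was 1.13, 1.79 and 1.55 in the 3 numbers, far below the gap between number 1 and the rest. Ddx58 read 11.91, 9.06 and 8.22 with MIE and 12.68, 9.90 and 9.30 with GATA2 WT, 1.86-fold higher (limma adjusted p = 0.00561). Lgals3bp, a secreted glycoprotein that binds galectins, read 12.23, 10.15 and 10.27 with MIE and 13.05, 10.84 and 10.64 with GATA2 WT, 1.54-fold higher (limma adjusted p = 0.0107). These 3 calls held in each of the 9 fits that left out 1 array.

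Oas3 read 9.58, 5.55 and 5.37 with MIE and 11.10, 7.00 and 6.55 with GATA2 WT, 2.61-fold higher (limma adjusted p = 0.019). Usp18 read 12.23, 6.65 and 6.34 with MIE and 13.47, 8.05 and 7.23 with GATA2 WT, 2.26-fold higher (limma adjusted p = 0.0413). Irf9, the DNA-binding partner of Stat2, read 9.06, 7.51 and 6.98 with MIE and 9.93, 8.41 and 7.80 with GATA2 WT, 1.82-fold higher (limma adjusted p = 0.0438). Psmb8, the other immunoproteasome subunit, fell by 0.58 with GATA2 WT, from 10.04, 8.98 and 8.98 to 9.51, 8.65 and 8.10 (limma adjusted p = 0.0357), with 9.79, 9.14 and 8.83 on the GATA2 R396Q arrays. Each of these 4 calls was lost in 5 or more of the 9 fits that left out 1 array. The total of 7 calls became 3 without MIE array 1 or MIE array 3 and 4 without MIE array 2, GATA2 WT array 1 or GATA2 WT array 2. With all 3 arrays numbered 1 left out, Cmpk2 alone remained. Isg15 and Rsad2 also had large mean differences, of 1.25 (SE 0.44) and 1.43 (SE 0.38), and were not called with the block (limma adjusted p = 0.131 and 0.0636).

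GATA2 R396Q differed from MIE by less than could be called. With the block and without it, limma called 0 members in either direction, against 1.66% of all clusters higher and 1.34% lower with the block and 1.23% without it, and 8 and 0 members had an unadjusted p under 0.05, against 19.8% and 12.1% of all clusters. GATA2 R396Q exceeded MIE in all 3 numbers for Cmpk2 and Ddx58, against 17.0% of all clusters, and was lower in all 3 for 19 members, against 18.9%. The median difference was -0.22, with -0.45, -0.10 and -0.15 in numbers 1, 2 and 3. The means of 34 members were negative and those of 6 positive, against 45.4% of all clusters positive. Without GATA2 WT array 1 the blocked fit called 1 member. The nearest to the threshold was Dhx58, at 10.46, 7.52 and 7.12 with MIE and 9.83, 6.94 and 6.26 with GATA2 R396Q (-0.70, SE 0.13; limma adjusted p = 0.0738), and Oas1a had the largest difference (-1.23, SE 0.26; limma adjusted p = 0.0877).

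The comparison of GATA2 R396Q with GATA2 WT, which shares the GATA2 WT arrays with the first comparison and cannot be read apart from it, asked how these 2 groups differed. Gata2 itself differed by -0.59 between them (SE 0.14; limma adjusted p = 0.0633 without the block). The form of GATA2 and the level of Gata2 signal therefore cannot be told apart in this comparison. Without the block limma called 0 members, against 5.75% of all clusters. At an unadjusted p under 0.05 the count was also 0, against 17.7% of all clusters. GATA2 R396Q was the lower array in all 3 numbers for 30 of 40 members, against 19.4% of all clusters, and the higher in all 3 for Cxcl10, Ifit3 and Psmb8, against 23.3%. The median difference was -0.70, with -0.92, -0.53 and -0.35 in numbers 1, 2 and 3. Of the 3 vectors, GATA2 WT gave the highest signal for 31, 31 and 22 members in numbers 1, 2 and 3, and GATA2 R396Q the lowest for 30, 25 and 21.

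**Figure D5:**
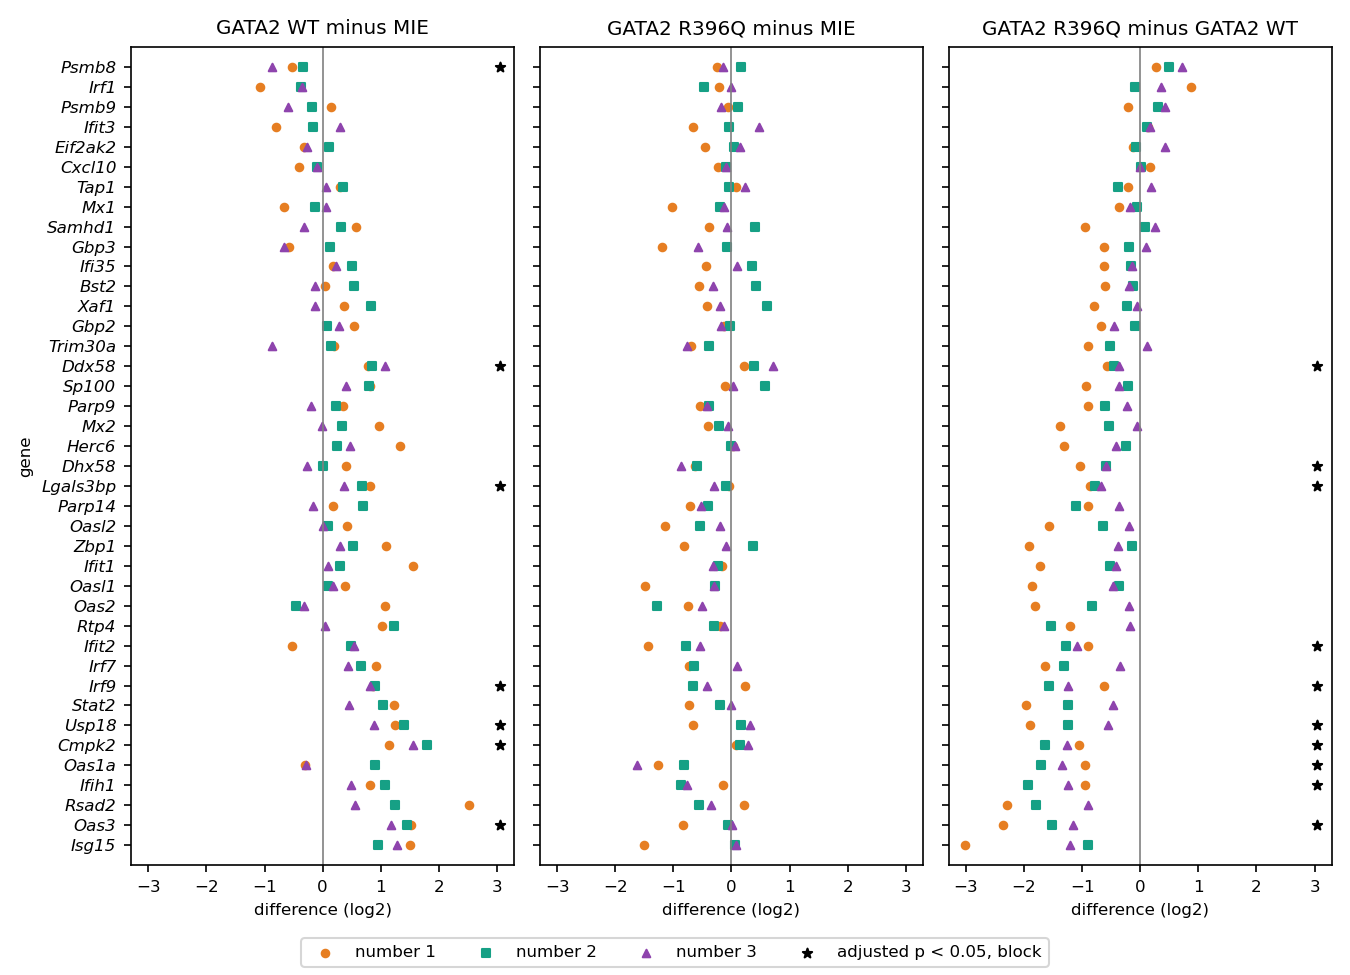
Difference between vectors within each replicate number (horizontal axes, log2) for 40 genes (vertical axis, ordered by the right panel), as 1 point per number, with stars for an adjusted p under 0.05 in limma with the replicate block. Most points of GATA2 R396Q minus GATA2 WT lie left of 0, and the stars mark 7, 0 and 10 genes in the 3 panels.

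With the block, limma called 10 members lower with GATA2 R396Q, against 5.95% of all clusters, and 0 higher, against 7.10%. Cmpk2 read 12.64, 9.87 and 8.85 with GATA2 WT and 11.59, 8.23 and 7.59 with GATA2 R396Q, 2.49-fold lower (-1.32, SE 0.14; limma adjusted p = 0.00671). Lgals3bp read 13.05, 10.84 and 10.64 with GATA2 WT and 12.19, 10.05 and 9.96 with GATA2 R396Q, 1.71-fold lower (limma adjusted p = 0.00779). These 2 calls held in each of the 9 fits that left out 1 array. Oas3 read 11.10, 7.00 and 6.55 with GATA2 WT and 8.75, 5.48 and 5.39 with GATA2 R396Q, 3.20-fold lower (limma adjusted p = 0.0145). Ifih1 read 10.92, 9.14 and 8.16 with GATA2 WT and 9.96, 7.21 and 6.92 with GATA2 R396Q, 2.60-fold lower (limma adjusted p = 0.0175). With MIE it read 10.11, 8.07 and 7.68, between the other groups in numbers 1, 2 and 3. The calls of Oas3 and Ifih1 held in 6 of those 9 fits.

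Irf9 read 9.30, 6.85 and 6.56 with GATA2 R396Q, 2.21-fold below GATA2 WT (limma adjusted p = 0.0252). Dhx58 read 10.86, 7.52 and 6.85 with GATA2 WT and 9.83, 6.94 and 6.26 with GATA2 R396Q, 1.67-fold lower (limma adjusted p = 0.0285). Oas1a read 12.91, 9.27 and 8.91 with GATA2 WT and 11.95, 7.56 and 7.56 with GATA2 R396Q, 2.53-fold lower (limma adjusted p = 0.0347), with 13.21, 8.38 and 9.19 on the MIE arrays. The vector groups overlapped in Irf9, Dhx58 and Oas1a, where every array numbered 1 was above every array numbered 2 or 3. Ddx58 with 12.11, 9.45 and 8.94 on the GATA2 R396Q arrays was 1.37-fold lower, Ifit2 with 9.37, 8.67 and 8.20 on the GATA2 WT arrays and 8.46, 7.39 and 7.11 on the GATA2 R396Q arrays 2.13-fold, and Usp18 with 11.57, 6.81 and 6.67 on the GATA2 R396Q arrays 2.35-fold (limma adjusted p = 0.0428, 0.0442 and 0.0442). These 6 calls held in 0 to 4 of the 9 fits. The total of 10 became 3 without GATA2 R396Q array 2, 4 without GATA2 WT array 1, GATA2 WT array 2 or GATA2 R396Q array 3, and 6 without MIE array 2, MIE array 3 or GATA2 R396Q array 1. It was 0 with the arrays numbered 1 left out and 2, Lgals3bp and Ifit2, in a blocked fit on these 2 groups alone, where Cmpk2 had a limma adjusted p of 0.0557.

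Whether the rise in number 1 differed between vectors was examined with an interaction term chosen after seeing the data. Each vector had only 1 array numbered 1, and this fit matches each of those arrays exactly. The counts and p-values that follow therefore rest on the spread of the other arrays alone. They do not measure how much the rise in number 1 varies, so they cannot decide whether it differed between vectors. Limma called 0 of 40 members and 0 of 21072 clusters in any of the 3 pairs of groups. At an unadjusted p under 0.05 there were 8 members for GATA2 WT with MIE, 9 for GATA2 R396Q with MIE and 11 for GATA2 R396Q with GATA2 WT, against 7.96%, 6.06% and 6.97% of all clusters. Oasl1, an inhibitor of Irf7 translation, read 8.34, 5.26 and 5.11 with MIE, 8.72, 5.34 and 5.29 with GATA2 WT and 6.85, 4.97 and 4.82 with GATA2 R396Q, that is, rises of 8.89-fold, 10.6-fold and 3.89-fold (limma adjusted p = 0.662 for GATA2 R396Q with GATA2 WT).

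Genes of the separate upstream lists, which leave out upstream members such as Irf9 and Stat2, differed between vectors in another pattern. Of all clusters, limma called 8.99% between GATA2 WT and MIE without a block, and 8.00% higher and 9.41% lower with it. Without a block the shares were 1.23% for GATA2 R396Q with MIE and 5.75% for GATA2 R396Q with GATA2 WT. Receptor genes were lower with GATA2 WT than with MIE, with Ifnar2 lower by 0.89 (SE 0.15; limma adjusted p = 0.0136) and Ifngr1 by 1.66 (SE 0.37; adjusted p = 0.0359) without a block, and 5 of 6 were called lower with it. Ifnar2 was higher with GATA2 R396Q than with GATA2 WT by 0.76 (SE 0.15; limma adjusted p = 0.0319). Of 8 JAK kinases and STATs limma called Jak1 and Jak2 higher with GATA2 WT than with MIE, with and without the block, and Stat3 lower with the block alone. Jak1 was higher by 0.24 (SE 0.05; limma adjusted p = 0.0386). Jak2, the kinase of the interferon-gamma receptor and of several hematopoietic cytokine receptors, was higher with GATA2 WT by 1.68 (SE 0.19; limma adjusted p = 0.00323) and lower with GATA2 R396Q than with GATA2 WT by 1.49 (adjusted p = 0.00686). Irf8, a factor of monocytes and dendritic cells, differed by -2.31 between GATA2 WT and MIE (SE 0.53; limma adjusted p = 0.0429). Of 14 sensor pathway genes 4 fell with GATA2 WT without a block, namely Tlr8 (-3.26), Tmem173 or STING (-2.41), Tlr4 (-1.97) and Tlr9 (-1.88). Tlr8 was also lower with GATA2 R396Q than with MIE (-2.51, SE 0.20), and Tmem173 was higher with GATA2 R396Q than with GATA2 WT (2.51, SE 0.49). Of 9 negative regulators Socs1, which blocks JAK kinases, rose with GATA2 WT (0.77, SE 0.12) and Ptpn6, a phosphatase, fell (-1.28, SE 0.23). Of 17 ligand genes 1 was called without a block, against 8.99% of all clusters. It was Ifna11, lower with GATA2 WT by 0.31 (SE 0.07; limma adjusted p = 0.0492).

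Further interferon targets moved between vectors mainly in the blocked fits. With GATA2 WT 10 of 59 were called higher than with MIE and 4 lower, against 8.00% and 9.41% of all clusters, among them Lgals9, a galectin (2.12, SE 0.12), Isg20 (0.77, SE 0.05), Cd274, which encodes the checkpoint ligand PD-L1 (1.01, SE 0.11), and Slfn2 (-1.30, SE 0.13). Lgals9 and Plscr1 were the 2 of 59 called without the block, against 8.99% of all clusters. With GATA2 R396Q against GATA2 WT 10 were lower, among them Igtp (-1.71, SE 0.19) and Irgm1 (-1.08, SE 0.15), and 2 higher, Slfn2 and Epsti1, against 5.95% and 7.10% of all clusters. With GATA2 R396Q against MIE 1 was higher, Lgals9, against 1.66%. Markers of other cell types differed between the same vectors: the summed monocyte and macrophage level was 12.51 to 13.97 with MIE, 10.41 to 11.43 with GATA2 WT and 11.36 to 11.89 with GATA2 R396Q, that of neutrophils 17.90 to 19.02, 12.99 to 15.71 and 16.51 to 18.53, and that of erythroid genes 7.94 to 8.51, 13.10 to 13.72 and 7.97 to 8.44. Their part in the differences of interferon genes between vectors was not tested.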

How the data were processed

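Each array gave 1 log2 value per transcript cluster, which the authors deposited after RMA. Per the submitters' processing notes this was run in Affymetrix Expression Console, whose version the labels do not give. Such processing subtracts background, makes the arrays' distributions alike and combines probes, and it compresses differences of dim clusters. The array type in the labels is Mouse Exon 1.0 ST, while the cluster identifiers look like those of a later whole-transcript array. Which of these is right was not settled. All 9 sample columns were used as deposited. Some clusters held exactly the same value on several arrays, and 4412 clusters had under 6 distinct values. Repeats also occurred in called members, such as Oas1a on GATA2 R396Q arrays 2 and 3 and Dhx58 on MIE array 2 and GATA2 WT array 2. Symbols came from the array annotation: 18992 clusters had 1 symbol, 1390 several and 690 none, and 418 symbols were brought up to date through RefSeq gene identifiers, of which 18236 matched.

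The members and lists were chosen with earlier results of these data known. Every member is given by symbol or count in its role group. Values on all arrays are given for members called between vectors, for the 10 with the largest difference of number 1 and for the highest mean in each role group, and in each further list up to 4 called genes with the smallest p were eligible.

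Clusters were tested with limma 3.58.1 in R 4.3.3, 2-sided, over all 9 arrays, with Benjamini-Hochberg adjustment over 21072 clusters and 0.05 as the threshold. The fit without a block had 6 residual and 0.956 prior degrees of freedom, the fit with the replicate number as a block 4 and 1.08, and the interaction fit 2 and 0.896. Pairing by number was checked from deviations from group means: 9 pairs of arrays with the same number correlated at 0.451 to 0.693 and 18 pairs with different numbers at -0.537 to -0.0900, so the block was used. Only the titles give the numbers. With 3 arrays per group, the number of arrays limits the precision. Scripts were tested on simulated data. Other settings were median subtraction, quantile normalization, a filter on the dimmest 30% or 50%, trend and robust options, array weights, only the groups compared, the mean of all clusters of a symbol, and leaving out single arrays or all arrays numbered 1. The interaction and a filter that asks for at least 6 distinct values were added after seeing the data.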

Additional observations from a re-analysis of the deposited data

How the results depend on the processing

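No setting reversed a called value. Of the named calls, 185 of 230 repeats under other settings kept the call and 45 lost it, and 147 of 243 repeats without 1 array kept it. Counts of members called moved as follows. The replicate block gave 7 for GATA2 WT with MIE, 10 for GATA2 R396Q with GATA2 WT and 0 for GATA2 R396Q with MIE, and without it each count was 0. In the blocked fits, counts were higher under the filters on clusters. For GATA2 WT with MIE, GATA2 R396Q with GATA2 WT and GATA2 R396Q with MIE, leaving out the dimmest 50% gave 14, 20 and 4. Leaving out the dimmest 30% gave 17 for GATA2 R396Q with GATA2 WT and 2 for GATA2 R396Q with MIE. Requiring 6 distinct values gave 11, 18 and 2. The dimness filters used the mean over all 9 arrays, so high signals on the arrays numbered 1 could carry a member past them. Oas2, for example, had a mean of 6.78 but read 4.39 to 5.67 on the arrays numbered 2 and 3. The filter on distinct values removed other clusters but none of the members. The share of all kept clusters called under each filter was not counted, so the higher counts are not read as a result about the members. Leaving out the arrays numbered 1, which leaves fewer samples, gave 1, 0 and 0, and only the 2 groups compared gave 2 for GATA2 R396Q with GATA2 WT. Without single arrays the blocked counts ran from 3 to 9, from 3 to 10 and from 0 to 1 in that order, and the count of members higher in number 1 from 5 to 28. Median differences without a block ran from -0.50 to 1.22 for GATA2 WT with MIE, from -1.02 to 0.48 for GATA2 R396Q with MIE and from -1.45 to 0.32 for GATA2 R396Q with GATA2 WT, since dropping 1 array leaves the numbers unbalanced between groups. The shift of all clusters was at most 0.07 in size under the scalings, and the members' medians kept their sign. For GATA2 R396Q with MIE 6 members had a positive mean as deposited, 8 after median subtraction and 7 after quantile normalization. Depth of signal limits Cxcl10, below the lower quartile on 8 arrays.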

Other observations

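Outside the lists, clusters called between replicate numbers held other genes known from interferon responses. In arrays numbered 1, Gvin1, a large interferon-inducible GTPase, was 14.8-fold higher (3.89, SE 0.24; limma adjusted p = 0.00739), and it read 13.15, 10.23 and 9.39 on MIE arrays 1, 2 and 3, 12.42, 8.36 and 8.38 with GATA2 WT and 12.67, 8.84 and 7.95 with GATA2 R396Q. Trim30d was 11.3-fold higher, Rnf213 7.43-fold, Ifi211 6.12-fold, Samd9l 5.08-fold, Mov10, an RNA helicase, 4.90-fold, and Mndal 4.41-fold. Genes with other roles were also higher, among them the matrix protein genes Bgn (6.00-fold) and Sparc (4.08-fold), the vasodilator peptide gene Adm (5.23-fold) and Cebpe, a transcription factor of late neutrophil development (3.61-fold).

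Fewer clusters were lower in arrays numbered 1. Slc7a11, the cystine transporter, was 3.73-fold lower, at 8.94, 9.73 and 10.75 with MIE, 7.22, 9.28 and 10.12 with GATA2 WT and 7.96, 9.37 and 10.40 with GATA2 R396Q. Its arrays numbered 3 were the highest of each group. Slc7a5, a transporter of large amino acids, was 2.05-fold lower. The sterol synthesis genes Hmgcs1, Lss, Idi1 and Fdft1 were 1.98-fold, 1.97-fold, 1.94-fold and 1.84-fold lower. In all 4 the array numbered 3 stood above both others of its group, which were closer to each other. Hmgcs1 read 11.12, 11.05 and 12.60 with MIE, 10.15, 10.46 and 12.46 with GATA2 WT and 10.76, 10.92 and 12.49 with GATA2 R396Q. Lss read 8.43, 8.44 and 10.09 with MIE, 8.69, 8.85 and 10.59 with GATA2 WT, and on GATA2 R396Q array 3 it read 11.11, above a value that arrays 1 and 2 shared. These genes were chosen by the size of their difference after the values were seen.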
